A study of Mus musculus with 6 samples.

Results

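The BCL2 family decides at the mitochondrial outer membrane whether a cell survives or dies, and 10 of its genes were followed here: the survival members Bcl2l10, Mcl1, Bcl2, Bcl2l1 and Bcl2l2, and the death members Bcl2l11, Bid, Bax, Bak1 and Bok. They were found by gene symbol, 1 row each, among the 55549 rows of the deposited tables. The exposed embryos were mouse zygotes kept with 40 uM ethylparaben (EtP), a paraben preservative, in their medium beginning 4 h after fertilization, and collected at the early 2-cell stage, where most of them had stopped per the series' description. They were set against control embryos collected at that stage, with 3 libraries for each group. The labels give no strain, no number of embryos per library, no hour of collection and no statement that the libraries came from separate cultures, so the p-values take in only library-to-library spread, possibly technical. Age at collection and exposure cannot be told apart.

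Survival members of the family hold the pore formers BAX and BAK in check, and the BH3-only proteins, such as BIM (from Bcl2l11) and BID, free or activate them. Once BAX or BAK opens the outer membrane, cytochrome c leaves the mitochondrion and joins APAF1 to start the caspases. In eggs and early embryos many of these transcripts are inherited from the oocyte, because the embryonic genome takes over only in the course of the 2-cell stage. Bcl2l10, also called Diva or Boo, is known for its high level in mouse oocytes. Its mouse protein has been described as death-inhibiting and as death-promoting in different cells, so its place among the survival members follows the family's usual grouping.

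The death members share the short BH3 segment that docks into the groove of the survival members, and most survival members carry a version of it. Its core pattern, leucine, any 3 residues, glycine and aspartate, was searched in the longest coding sequence of each member in GENCODE M21 (GRCm38, the assembly called mm10). It was found in 8 of the 10 members, against 7.12% of 5784 genes with coding lengths in the members' range of 191 to 331 residues and 13.3% of 21660 protein-coding genes. The coding stretches of the tested members that hold it are shown because they mark what the survival and death genes have in common although they diverge in sequence. Capitals mark the 18 bases of the core.
Mcl1: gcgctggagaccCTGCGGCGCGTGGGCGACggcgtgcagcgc
Bcl2l1: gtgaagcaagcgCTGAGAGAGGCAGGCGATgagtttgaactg
Bcl2l11: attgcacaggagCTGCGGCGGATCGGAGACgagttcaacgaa
Bid: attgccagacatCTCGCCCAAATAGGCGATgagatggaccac
Bax: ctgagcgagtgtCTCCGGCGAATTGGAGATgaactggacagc
These lie at chr3:95659424-95659465 (plus strand), chr2:152829694-152829735 (minus), chr2:128147138-128147179 (plus), chr6:120897286-120897327 (minus) and chr7:45465994-45466035 (minus). The cores of Mcl1 and Bcl2l11 were identical at 14 of 18 bases, and those of Bcl2l1 and Bax at 8 of 18. Part of this identity comes with the search, because the codons of the pattern fix some of these bases. The pattern was not found in Bcl2l10 or Bcl2l2, which says only that these residues do not occur in that order there. The start of the Bcl2l10 coding sequence, at chr9:75347903-75347962 on the plus strand, is shown as the transcript that the results turn on, with the start codon in capitals.
Bcl2l10: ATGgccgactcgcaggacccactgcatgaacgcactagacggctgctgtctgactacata

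Whole-library measures were as follows. Library totals were 11173295 to 14737152 estimated counts. Correlations of log2(CPM + 1), where CPM is a count relative to library size and composition (TMM scaling), were 0.940 to 0.988 within groups and 0.905 to 0.936 between them. Genes with at least 1 count numbered 19244 to 19613 in EtP and 25861 to 26004 in control. Oocyte and embryo markers summed to 18843 to 20064 TPM (a level scaled for transcript length and depth) in EtP and 11102 to 13447 TPM in control, with none of 10 at 0. Of 10 cumulus and granulosa markers Ptx3 and Amh were at 0 counts in all libraries, and the sum was 7.66 to 9.87 TPM in EtP and 14.6 to 25.7 TPM in control. Of 8 sperm markers Tnp1, Smcp and Spem1 were at 0 counts in all libraries, and the sum was 5.10 to 7.04 TPM in EtP and 21.5 to 32.7 TPM in control. The number of genes detected and both of these low sums were lower in EtP, as were the levels of Mcl1 and Bcl2, and their part in those results was not tested. The oocyte and embryo marker sum was higher in every EtP library, as was the level of Bcl2l10. The part of that wider rise in the Bcl2l10 result was not tested either. In RNA from whole embryos fewer cells and less RNA per cell cannot be told apart.

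The family's transcripts were dominated by 1 gene, and its 2 called members moved in opposite directions. Bcl2l10 was called higher and Mcl1, which encodes a short-lived survival protein, lower, both on the survival side. The Bcl2l10 call was lost when libraries were scaled by library size alone (edgeR adjusted p = 0.147). None of the death members passed the test. Of the 10 members 6 had enough counts to be tested, 3 on each side. Mcl1, with 7 counts in 2 of the EtP libraries, passed the filter through its control libraries. The 1 member called higher and 1 called lower of 6 stand near the background, where 12.5% of 14373 tested genes were called higher and 18.1% lower in EtP (quasi-likelihood test of edgeR, p below 0.05 after Benjamini-Hochberg adjustment). The median log2 fold change was -0.06 over the 6 tested members and -0.19 over all tested genes. For the death members the count of 0 held also at an unadjusted p below 0.05 and with DESeq2 and limma-voom, but with library size alone or with TPM 2 of them, Bcl2l11 and Bax, were called lower. Those settings call far more of all genes lower, 53.0% against 3.79% higher with library size alone and 42.5% against 5.11% higher with TPM.

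**Figure D1:**
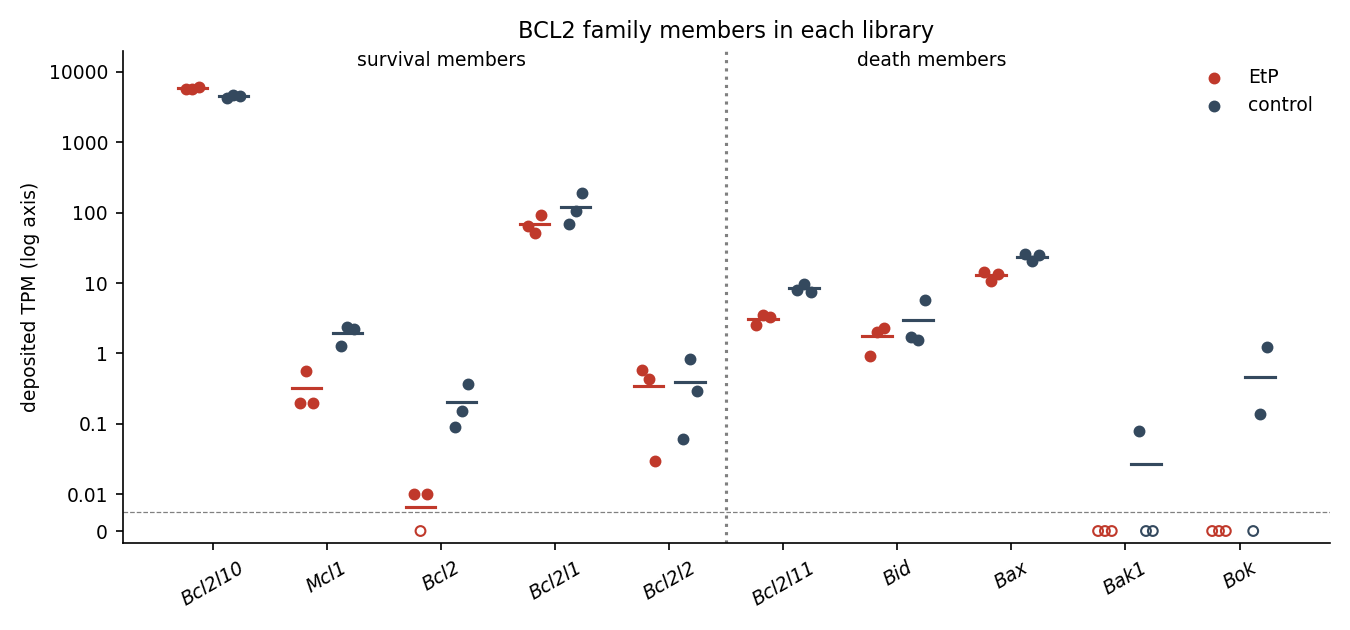
Deposited TPM of the 10 members in each library (log axis; open circles below the dashed line are values of 0), with EtP to the left of control, points for libraries and lines for group means. Bcl2l10 lies between 5777 and 6023 TPM in EtP and between 4319 and 4664 TPM in control, far above every other member.

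Bcl2l10 lies on chromosome 9 from 75347758 to 75351632 of mm10, with no overlapping gene and no stretch of 100 bases shared with another gene's transcripts. It had 5777, 5815 and 6023 TPM in EtP replicates 1, 2 and 3, against 4319, 4664 and 4506 TPM in control replicates 1, 2 and 3. On the CPM scale it had 6594, 6537 and 5733 in EtP, against 3546, 3098 and 2575 in control. Every EtP library was above every control library on both scales, as for 19.0% of tested genes in CPM and 6.74% in TPM. The log2 fold change was 1.03 ± 0.21 (SE; edgeR adjusted p = 0.00436, n = 3 each). The size of this rise depends on how libraries are scaled. Scaling factors for composition were 0.738 to 0.833 in EtP and 1.20 to 1.39 in control, and with library size alone, where the median of all genes shifted by -0.73, Bcl2l10 was at 0.31 ± 0.17 and lost its call (edgeR adjusted p = 0.147). In TPM, limma on log2(TPM + 1) gave a difference of 0.39 ± 0.14 (SE; adjusted p = 0.0453).

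Bcl2l10 alone made up 98.6%, 98.8% and 98.2% of the TPM of the family in the EtP libraries and 97.6%, 97.1% and 95.1% in the control libraries. It ranked 26 to 29 among all rows by TPM in EtP and 24 to 29 in control, so its place among the most abundant transcripts differed little. It took 0.487% ± 0.010 of all counts in EtP and 0.392% ± 0.034 in control (mean ± SD, n = 3 each).

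Mcl1 lies on chromosome 3 from 95658788 to 95663176, with no overlapping gene. It had 7, 17 and 7 counts in EtP, against 52, 87 and 58 counts in control. In TPM these were 0.200, 0.560 and 0.200 in EtP and 1.28, 2.34 and 2.21 in control. All 3 EtP libraries were below all 3 control libraries, as for 27.9% of tested genes in CPM and 50.4% in TPM. The log2 fold change was -1.91 ± 0.47 (SE; edgeR adjusted p = 0.0113). Mcl1, which passed the filter through its control libraries, was called lower under each scaling tried, with library size alone at -2.64 ± 0.47. These fits use the same counts and are not separate support for the fall. The EtP libraries held 31 counts in all, so the value rests on few reads. The call was lost without EtP replicate 1, EtP replicate 3 or control replicate 2 (edgeR adjusted p = 0.0638, 0.0560 and 0.0519).

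Bcl2l1, which encodes BCL-XL and the shorter BCL-XS, lies at chr2:152780668-152831728 (minus strand) and was the second most abundant member in both groups. It had 64.7, 51.9 and 92.7 TPM in EtP, against 68.4, 106 and 188 TPM in control. Control replicates differed more from each other than the group means did, and the groups overlapped. In CPM it averaged 131 ± 27.2 in EtP and 129 ± 60.4 in control (SD, n = 3 each), with a log2 change of 0.03 ± 0.32 (SE; edgeR adjusted p = 0.958). That sign turned with upper-quartile scaling, library size alone or TPM.

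Bcl2, the founding survival gene, and Bcl2l2, which encodes BCL-W, were near the limit of detection and did not pass the filter. They lie at chr1:106538178-106714274 (minus strand) and chr14:54883377-54888234 (plus strand). Bcl2 had 1, 0 and 1 counts in EtP, against 5.50, 7 and 8 estimated counts in control. Every EtP library was below every control library, as for 27.9% of tested genes in CPM and 50.4% in TPM. Bcl2 itself was not among the tested genes. Rounded and summed, 2 counts in EtP stood against 21 in control, a ratio of 0.154 scaled for library size and composition with a 95% exact binomial interval of 0.0175 to 0.631, which covers counting error only. Bcl2 shares 4.41% of its windows of 100 bases with D630008O14Rik on the opposite strand, which had 0.500 and 1 counts in control replicates 1 and 3 and none in the other libraries. Bcl2l2 had 7, 5 and 1 counts in EtP, against 2.41, 8.33 and 7.87 in control, with a ratio of 1.17 and an interval of 0.527 to 2.52. It shares 10.9% of its windows of 100 bases with Gm20521, a protein-coding gene on the same strand that overlaps it. Gm20521 had 0 counts in all EtP libraries and 5.93, 7.39 and 12.9 in control, so the split between these genes is uncertain.

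**Figure D2:**
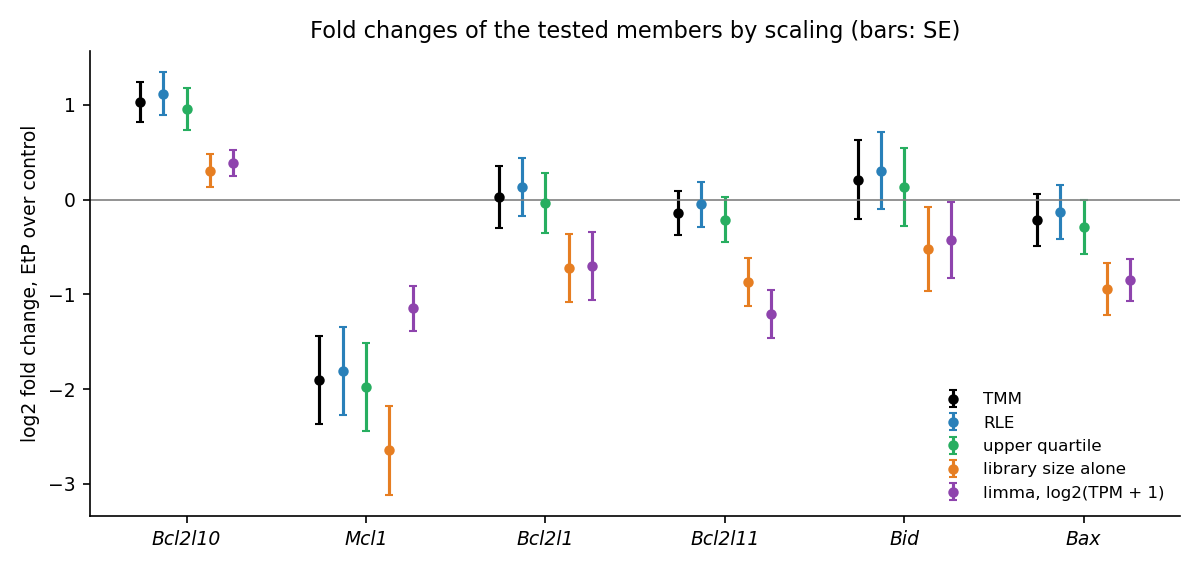
Log2 fold changes of the 6 tested members, EtP over control, with SE, by edgeR with 4 kinds of scaling and by limma on log2(TPM + 1). Mcl1 lies below 0 and Bcl2l10 above 0 under every scaling shown, while Bcl2l1 and Bid change sign.

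Among death members the pore former Bax was the most abundant. On chromosome 7 from 45461697 to 45466898, it had 14.3, 10.8 and 13.4 TPM in EtP, against 25.8, 20.6 and 24.9 TPM in control. All EtP libraries were thus below all control libraries in TPM, as for 50.4% of tested genes. In CPM the groups did overlap, with 10.9, 8.07 and 8.36 in EtP and 13.6, 8.73 and 9.41 in control. Its log2 fold change was -0.22 ± 0.28 (SE; edgeR adjusted p = 0.587). With library size alone it was -0.94 ± 0.27 and called (edgeR adjusted p = 0.0140), and in limma on log2(TPM + 1) the difference was -0.84 ± 0.22 (adjusted p = 0.0136). It shares 5.33% of its windows of 100 bases with Gm45808, which had no count in any library. The other pore former, Bak1, at chr17:27019810-27029009 (minus strand), had no count in EtP and 2 in control replicate 1 alone, both under the floor of 3 counts taken over a group. It overlaps Ggnbp1 on the opposite strand and shares 9.44% of its windows of 100 bases with it. Ggnbp1 had 59.7 to 114 counts per library, so the split between these genes is uncertain. Bok, a BAX-like member at chr1:93685660-93695764 (plus strand), had no count in EtP, against 0, 1 and 5 counts in control, and the 95% exact binomial interval of its ratio, 0 to 1.38, includes no change.

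Bcl2l11, whose product BIM binds all the main survival proteins, lies on chromosome 2 from 128126038 to 128162547 with no overlapping gene. It had 103, 108 and 125 counts in EtP, against 191, 246 and 169 counts in control. In CPM the groups overlapped, with 9.94, 11.9 and 10.4 in EtP and 11.5, 13.01 and 10.97 in control. The log2 fold change was -0.14 ± 0.24 (SE; edgeR adjusted p = 0.687). In TPM it had 2.51, 3.52 and 3.27 in EtP and 8.08, 9.79 and 7.48 in control. All EtP libraries were thus below all control libraries in TPM, as for 50.4% of tested genes. In limma on log2(TPM + 1), which called 42.5% of all genes lower, the difference was -1.21 ± 0.25 (adjusted p = 0.00454). TPM divides by transcript length, and the mean transcript lengths behind the values did not overlap between groups either.

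The deposited length of a gene is the mean over its transcripts, weighted by their estimated abundance. For Bcl2l11 it was 4003, 3482 and 3772 bases in EtP, against 2046, 2350 and 2957 bases in control. Every EtP library had the longer mean, as for 12.4% of 8288 genes with several transcripts and at least 20 counts in every library, while 11.0% of them had shorter means in every EtP library. The exact two-sided permutation p was 0.1, the smallest that 3 against 3 allows, and 0.2 when adjusted over the 4 members that met these conditions. Bcl2l11 has 8 annotated transcripts of 391 to 5036 bases, and only the longest, of 5036 bases, exceeds 3538 bases and so is longer than the means in EtP replicates 1 and 3. Which transcripts were present is not given by a mean length, and with 103 to 246 counts per library the estimate is coarse. Bid also had longer means in all EtP libraries, but EtP replicate 2 at 2396 bases was next to control replicate 1 at 2395 bases. For Bcl2l1 and Bax the lengths overlapped.

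**Figure D3:**
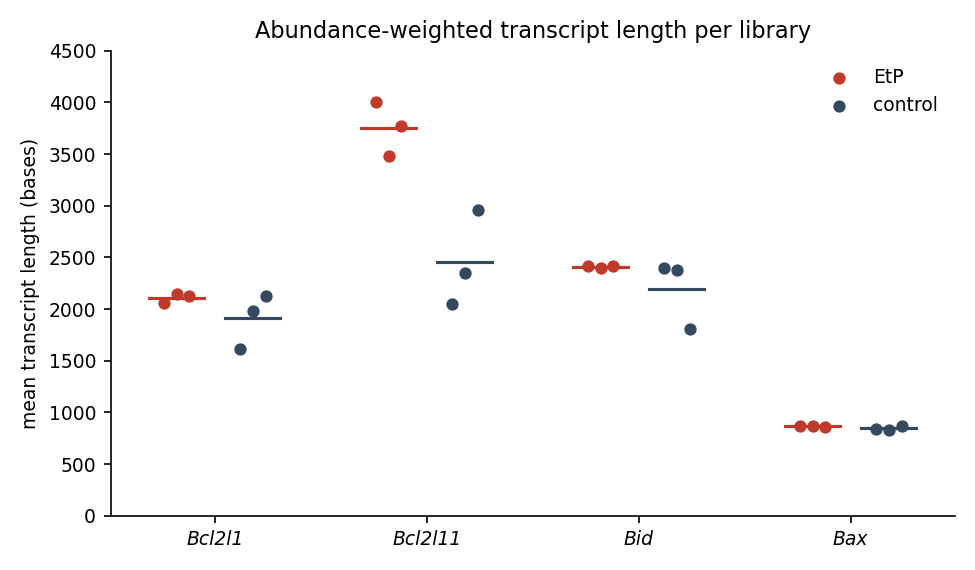
Abundance-weighted mean transcript length in bases of the 4 members with several transcripts and at least 20 counts in every library, with EtP to the left of control, points for libraries and lines for group means. Bcl2l11 lies between 3482 and 4003 bases in EtP and between 2046 and 2957 bases in control, and the other members differ less.

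Bid, the BH3-only gene whose product is cut by caspase-8, had 0.930, 2.00 and 2.32 TPM in EtP, against 1.73, 1.54 and 5.70 TPM in control, and the groups overlapped. Its log2 fold change was 0.21 ± 0.41 (SE; edgeR adjusted p = 0.731), and it was negative with library size alone or TPM. Bid lies on chromosome 6 from 120891930 to 120916853 opposite Bcl2l13, with which it shares 15.1% of its windows of 100 bases. The protocol does not mark strand, so reads of that stretch cannot be told apart.

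Ratios of counts between members of 1 library do not depend on how libraries are scaled to each other. Per Mcl1 count there were 9761, 3480 and 9889 Bcl2l10 counts in EtP, against 1136, 673 and 684 in control. Per Bcl2l11 count there were 663, 548 and 554 in EtP, against 309, 238 and 235 in control. Per Bax count there were 605, 810 and 685 in EtP, against 260, 355 and 274 in control. For these 3 ratios every EtP library was above every control library, and the two-sided exact permutation test gave p = 0.1, or 0.167 adjusted over 5 ratios. The ratios to Bcl2l1 and Bid overlapped between groups (exact permutation p = 0.2 and 0.4, adjusted 0.25 and 0.4). A ratio shows that the 2 genes changed unequally and not which of them changed. All 5 ratios share Bcl2l10, and how many of all genes would also separate in a ratio to it was not counted. The ratio of the death members Bcl2l11 and Bax overlapped between groups, with 0.912, 1.48 and 1.24 Bcl2l11 counts per Bax count in EtP and 0.841, 1.49 and 1.17 in control.

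**Figure D4:**
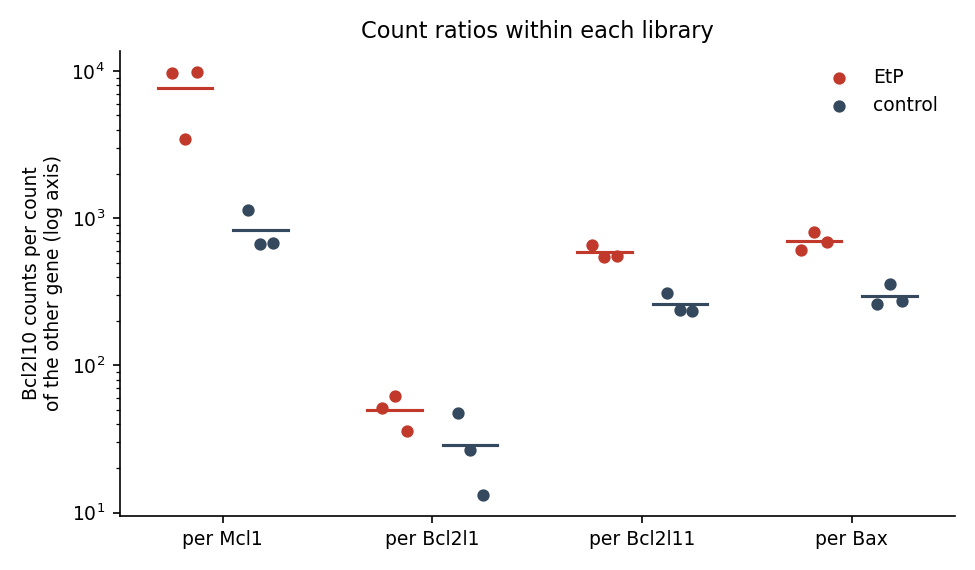
Bcl2l10 counts per count of Mcl1, Bcl2l1, Bcl2l11 and Bax in each library (log axis), with EtP to the left of control, points for libraries and lines for group means. Per Bcl2l11 count the EtP libraries lie between 548 and 663 and the control libraries between 235 and 309, while the ratios to Bcl2l1 overlap.

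Summed over each side, survival members had 5843, 5868 and 6115 TPM in EtP and 4389, 4773 and 4697 TPM in control, nearly all of it from Bcl2l10. Death members had 17.7, 16.3 and 19.0 TPM in EtP and 35.7, 32.1 and 39.3 TPM in control. The survival to death ratio was thus 330, 361 and 321 in EtP, against 123, 149 and 119 in control. Without Bcl2l10 the ratio was 3.69, 3.25 and 4.88 in EtP and 1.96, 3.39 and 4.84 in control, and the groups overlapped. These sums are given as a description. In TPM 50.4% of tested genes were lower in every EtP library than in every control library. In CPM Bax and Bcl2l11 overlapped between groups, and neither was called. The TPM of Bcl2l11 also divides by a mean transcript length that was longer in EtP. Bcl2l10 counts as a survival member here only by the family's usual grouping.

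Among 65 genes that act with the family, in 5 branches, 7 were called higher and 7 lower of 49 tested, next to the background of 12.5% higher and 18.1% lower. With library size alone 0 were called higher (2 at an unadjusted p below 0.05), so each of the 7 higher calls depends on the scaling. The other BH3-only and BCL2-related genes gave 1 lower and 0 higher of 7 tested (0 higher also at an unadjusted p below 0.05 and with DESeq2 and limma-voom). The lower one was Pmaip1, which encodes NOXA, the BH3-only partner of MCL1, and with 2, 3 and 9 counts in EtP it passed the filter through its control libraries alone. It had 0.193, 0.331 and 0.745 CPM in EtP, against 1.56, 1.96 and 1.43 CPM in control, with a log2 change of -1.90 ± 0.51 (SE; edgeR adjusted p = 0.0179), and the call was lost without EtP replicate 1, EtP replicate 2 or control replicate 2 (adjusted p = 0.0988, 0.0881 and 0.0747). The abundant mitophagy receptors Bnip3l and Bnip3 had log2 fold changes of -0.48 ± 0.24 and -0.32 ± 0.24 and were not called (edgeR adjusted p = 0.153 and 0.347). With library size alone they were at -1.20 and -1.03 and called lower (edgeR adjusted p = 0.00142 and 0.00448), as they were in limma on log2(TPM + 1) at -1.03 and -0.90 (adjusted p = 0.00122 and 0.00518). With the filter at 10 CPM Bnip3l was called lower at -0.74 (edgeR adjusted p = 0.0405). Puma (Bbc3) and the Bcl2a1a, Bcl2a1b and Bcl2a1d copies had no count in any library.

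Partners at the mitochondrial outer membrane gave 3 higher and 2 lower of 14 tested. The 14-3-3 protein gene Ywhaz, whose product holds BAD in the cytosol, was at 4171 ± 314 CPM in EtP and 1901 ± 379 CPM in control (SD, n = 3 each). Bcap31, an endoplasmic reticulum protein that binds BCL2, rose by 1.09 ± 0.26 on the log2 scale, and Mtch2, the mitochondrial receptor of BID, by 1.27 ± 0.39 (SE; edgeR adjusted p = 0.00996 and 0.0311). The Mtch2 call was lost without EtP replicate 1, EtP replicate 2 or control replicate 2 (adjusted p = 0.0689, 0.131 and 0.0834) and with the filter at 10 CPM (0.0814). In limma on log2(TPM + 1) Mtch2 was at 0.20 and Bcap31 at 0.47 and neither was called (adjusted p = 0.568 and 0.0563). The dynein light chain Dynll1, which ties BIM to microtubules, fell to 50.6, 38.2 and 35.0 CPM in EtP, against 266, 134 and 115 CPM in control, a log2 change of -2.06 ± 0.33 (edgeR adjusted p = 0.00121). The co-chaperone Bag3 had no count in EtP and 1.68, 0.846 and 3.38 CPM in control (0 counts against 96), and the 95% exact binomial interval of its ratio was 0 to 0.0634. It was called lower and passed the filter through its control libraries alone. Tpt1, the abundant TCTP gene, was at 241 ± 20.1 CPM in EtP and 335 ± 87.0 CPM in control and was not called (edgeR adjusted p = 0.142), but it was called lower with library size alone at -1.19, with the filter at 10 CPM at -0.73 and in limma on log2(TPM + 1) at -1.04 (adjusted p = 0.000987, 0.0335 and 0.000684).

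Genes of MCL1 turnover gave 3 higher and 0 lower of 9 tested (0 lower also at an unadjusted p below 0.05 and with DESeq2 and limma-voom), although with library size alone 0 were higher and 3 lower. Usp9x, a deubiquitinase that stabilises MCL1, was at 1475, 1194 and 1548 CPM in EtP, against 466, 754 and 814 CPM in control, a log2 change of 1.05 ± 0.25 (SE; edgeR adjusted p = 0.00974). Skp1a and Cul1, core subunits of SCF ubiquitin ligases, which act on many other proteins too, rose by 1.24 ± 0.28 and 0.81 ± 0.20 (edgeR adjusted p = 0.00805 and 0.0110). The Cul1 call was lost without EtP replicate 1 (adjusted p = 0.0541). In limma on log2(TPM + 1) Cul1 turned to -0.0185 and Usp9x was at 0.60, and neither was called (adjusted p = 0.927 and 0.184).

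The caspase cascade gave 3 lower and 0 higher of 14 tested (2 higher at an unadjusted p below 0.05, 1 higher with DESeq2 and 0 with limma-voom). Diablo, which encodes the SMAC protein that relieves caspase inhibition, was at 18.9 ± 1.21 CPM in EtP and 32.7 ± 4.44 CPM in control, a log2 change of -0.79 ± 0.22 (SE; edgeR adjusted p = 0.0203). Its call was lost without EtP replicate 1, 2 or 3 or control replicate 2 (adjusted p = 0.0873, 0.0985, 0.0876 and 0.140). It was also lost with no filter on low counts. The caspase gene Casp6 was at 0.290, 0 and 0.331 CPM in EtP, against 2.46, 0.688 and 2.40 CPM in control, and fell by 3.02 ± 0.76 on the log2 scale (SE; edgeR adjusted p = 0.0126). With at most 4 counts in an EtP library, it too passed the filter through its control libraries alone. Cycs, which encodes cytochrome c, was at 56.3 ± 2.32 CPM in EtP and 56.1 ± 25.6 CPM in control (edgeR adjusted p = 0.995). The caspase inhibitor Birc3 was the most abundant gene of this branch, at 564 ± 154 CPM in EtP and 445 ± 71.1 CPM in control, and was not called (edgeR adjusted p = 0.319).

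In the death receptor branch, 1 of 5 tested genes was higher and 1 lower. Cflar, which encodes the caspase-8 inhibitor FLIP, was at 102, 127 and 77.5 CPM in EtP, against 66.6, 54.7 and 39.0 CPM in control, with a log2 change of 0.93 ± 0.27 (SE; edgeR adjusted p = 0.0233). The adaptor Fadd was at 5.12, 5.08 and 4.22 CPM in EtP, against 9.84, 9.15 and 10.2 CPM in control, with a log2 change of -1.02 ± 0.26 (edgeR adjusted p = 0.0128). Both calls were lost when EtP replicate 1 was left out (adjusted p = 0.0683 and 0.0607) or control replicate 2 (0.0673 and 0.0508), Cflar also without EtP replicate 2 (0.0940) and Fadd without EtP replicate 3 (0.0682). Cflar was also not called with the filter at 10 CPM (edgeR adjusted p = 0.0769), and in limma on log2(TPM + 1) it turned to -0.17 (adjusted p = 0.527). The kinase gene Ripk1 was at 56.1 ± 4.68 CPM in EtP and 45.7 ± 13.1 CPM in control and was not called (edgeR adjusted p = 0.404). Pmaip1, Bag3 and Casp6 lie below the mean of 5 CPM set for naming and were named after their values were seen.

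**Figure D5:**
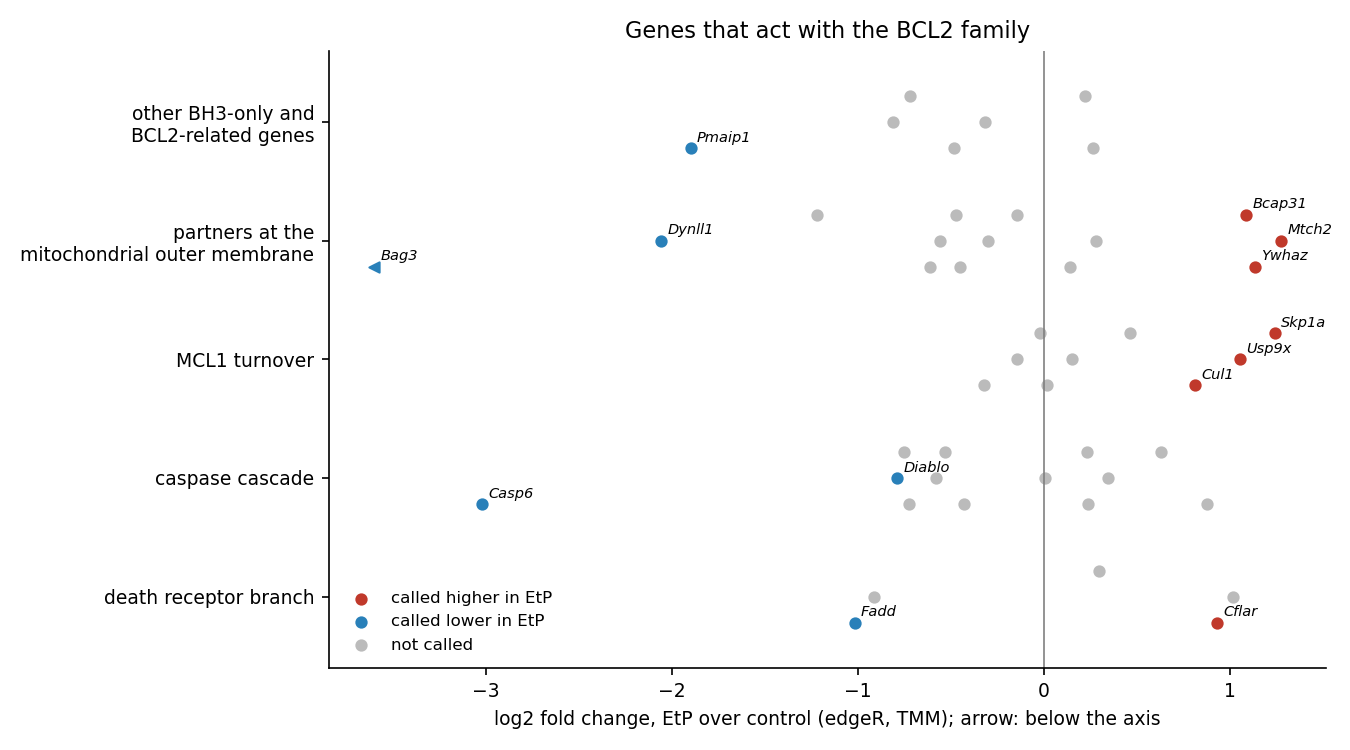
Log2 fold change, EtP over control, of the tested genes of the 5 branches that act with the BCL2 family (edgeR, TMM scaling), coloured by call, with 1 gene of the caspase cascade not shown. The 7 genes called higher lie between 0.81 and 1.27, and those called lower include Dynll1 at -2.06 and, drawn at the axis edge, Bag3.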

How the data were processed

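Polyadenylated RNA was amplified by Smart-seq2, which primes with oligo-dT and does not mark strand, then sheared and read from both ends, per the labels' protocols. The submitters' processing notes name cutadapt 1.16, STAR and the mm10 build. The counting program is not given in the sources used here. For testing, the deposited expected count, the authors' estimate of fragments per gene, was rounded, and 10.6% to 16.0% of rows per library were not whole within 0.005. The deposited TPM, which the authors scaled for transcript length and for depth, and the deposited length were used as given. Rows without an Ensembl ID (214) stayed in the fit.

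EtP was compared with control (3 libraries each) with edgeR 4.0.16 in R 4.3.3: filterByExpr, TMM scaling, robust quasi-likelihood fits with no term but group, and Benjamini-Hochberg adjustment over all tested genes at 0.05. The SE of a fold change is its absolute log2 value over the root of the F statistic. Library sizes behind CPM were TMM-scaled. Alternatives used limma 3.58.1 and DESeq2 1.42.0, other scalings and filters, and each library left out; a fit that drops the rows lacking such an ID was chosen after seeing the data. Simulated counts with known changes in a small share of genes, as likely up as down, served to test the edgeR fit. They held no shift in composition between groups, so they cannot check the scaling on which the Bcl2l10 call depends. Reads carry no molecular identifiers, so intervals and floors cover counting error only. Positions, transcripts and sequences are from GENCODE M21; 9 of the 10 members had the same versioned ID there and Bcl2l10 an earlier version. From each branch, called genes with a mean of at least 5 CPM (at most 6) and the 2 most abundant genes were named. The values of 1 gene of the caspase cascade are not reported here. Members and lists were chosen with earlier results of these data known.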

Additional observations from a re-analysis of the deposited data

How the results depend on the processing

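Bcl2l10 stayed called higher under 16 of 17 alternatives, all but library size alone, and Mcl1 called lower under 13 of the 16 in which it was tested. These fits draw on the same libraries and are not separate support for either call. Mcl1 also passed the filter through its control libraries. The filter on low counts removed Bcl2, Bcl2l2, Bak1 and Bok. With no filter all 10 members were tested, with 1 called higher and 1 lower (2 lower at an unadjusted p below 0.05). Low counts limit the precision for the 4 removed members. Scaled by library size alone, 0 members were called higher and 3 lower, 0 genes of the 5 branches higher and 26 lower, and 545 of all genes higher and 7617 lower; no member was higher at an unadjusted p below 0.05 there. With limma on log2(TPM + 1) 3 members were lower, 2 branch genes higher and 24 lower, and 683 of all genes higher and 5680 lower. At 10 CPM in 3 libraries Mcl1 was not tested and 0 members were lower, by edgeR and at an unadjusted p; 11 branch genes were lower, and 978 of all genes higher and 1454 lower. With upper-quartile scaling 11 branch genes were lower. Leaving out each library gave 1 member higher, 0 to 1 lower, 4 to 8 branch genes higher and 4 to 11 lower, and 1096 to 2637 of all genes higher and 1659 to 2887 lower. The survival to death ratio ranged from 325 to 345 in EtP and 121 to 136 in control.

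The replicate block gave 11 branch genes lower in place of 7, and 2295 of all genes higher and 3022 lower. Deviations of same-numbered libraries correlated at 0.184, 0.005 and 0.363. EtP replicates 1 and 3 correlated best with the control of their own number, and EtP replicate 2 with control replicate 1, at 0.152. With 3 libraries per group these values cannot decide whether a number marks a shared batch. The block changed no call among the members.

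Signs of some genes turned, among them genes called in the main fit. Bcl2l1 was at -0.0375, -0.72, -0.23 and -0.70 with upper-quartile scaling, library size alone, 10 CPM and TPM, and Cycs at -0.0759, -0.70, -0.25 and -0.88. Cycs was at -0.000431 without mitochondrially encoded genes. With library size alone and TPM, Bid was at -0.52 and -0.42, Birc3 at -0.39 and -0.37 and Ripk1 at -0.45 and -0.28. Cul1 and Cflar, called higher in the main fit at 0.81 and 0.93, turned to -0.0185 and -0.17 with TPM. Over left-out libraries Bcl2l1 ranged from -0.14 to 0.50, Bcl2l11 from -0.18 to 0.00325, Bax from -0.32 to 0.10, Bnip3 from -0.41 to 0.0400 and Cycs from -0.21 to 0.52. The cause was not tested.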
